A study of Mus musculus with 30 samples.

Results

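The miR-15/16 family is a group of microRNAs (miRNAs) that share the same seed, the bases at the 5′ end that pair with target transcripts. Its members were taken by their names on the array: mmu-miR-15a, mmu-miR-15b, mmu-miR-16, mmu-miR-195, mmu-miR-322 and mmu-miR-497, which are 6 of the 1079 mouse miRNAs on the array. All 6 were detected on every array, so no member was lost to the filter on low signals.

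The hearts came from female C57BL/6 mice that were 5 to 6 weeks old on arrival, and each sample was a section with both ventricles. Each mouse had received 1 instillation into the trachea, either of 162 µg of Printex 90, a commercial carbon black of nanosized particles, or of the vehicle alone (dose 0 µg). The vehicle, which the Printex 90 mice received too, was 0.9% NaCl with 10% acellular lavage fluid from the lungs of C57BL/6 mice, given as 40 µl followed by 150 µl of air. Hearts were taken on day 1 (4 vehicle and 6 Printex 90 arrays), day 3 (6 and 4) and day 28 (4 and 5), which gives 29 arrays with signal on 4 slides of up to 8 arrays. The file of Printex 90 day 3 replicate 3, the sample beyond these 29 of 30, lists names without a signal. That group stands at n = 4 in the main fit. The sample enters only in the alternative that uses the deposited series value table. The design addresses whether particles that reach the lung alter miRNAs of the heart.

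Members of this family act as brakes on the cell cycle and on survival: by textbook knowledge they repress cyclins, cyclin-dependent kinases, checkpoint kinase genes and the anti-apoptotic gene Bcl2. In the mouse heart the family is known for its part in the exit of cardiomyocytes from the cell cycle after birth, with miR-195 as the best-studied member. Each hairpin is processed to a guide strand, which is loaded into Argonaute and measured here, and a passenger strand, marked with an asterisk in the array's names.

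The mature sequences are shown because they define the family, and because the array has to tell near-identical members apart. They come from RefSeq (GRCm38.p6), run 5′ to 3′, and carry the seed (bases 2 to 8) in capitals.
miR-15a: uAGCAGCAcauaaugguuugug
miR-15b: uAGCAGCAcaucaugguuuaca
miR-16: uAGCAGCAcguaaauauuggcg
miR-195: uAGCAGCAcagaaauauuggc
miR-322: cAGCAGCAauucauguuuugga
miR-497: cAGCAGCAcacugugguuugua
All 6 have the same seed, and 10 of the 1679 mature names in the RefSeq table carry it. Outside the seed the members differ. miR-16 and miR-195 are the closest pair, with 19 of 21 aligned bases alike: counted from 1 at the 5′ end and with miR-16 first, the differences are G10A and U11G. miR-15a and miR-15b have 18 of 22 bases alike and differ by A12C, G20A, U21C and G22A. miR-195 and miR-497 are far less alike, with 12 of 21; over the 15 pairs of members the count of like bases ran from 11 to 19.

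Related starts were taken from 3 further miRNAs on the array. miR-503 has a seed with 1 base changed, and miR-103 and miR-107 carry the shared run AGCAGCA from base 1, so that their own seed is shifted by 1 base.
miR-503: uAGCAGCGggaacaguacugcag
miR-103: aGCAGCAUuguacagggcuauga
miR-107: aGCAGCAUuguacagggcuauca

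The likeness in sequence does not follow the position of the genes, which lie as close pairs at 4 loci. On GRCm38.p6, Mir15a (chr14:61632027-61632110, minus strand) and Mir16-1 (chr14:61631880-61631972, minus strand) lie 54 bases apart within Dleu2, a long noncoding RNA gene. Mir15b (chr3:69009772-69009835, plus strand) and Mir16-2 (chr3:69009902-69009996, plus strand) lie 66 bases apart within Smc4, which encodes a condensin subunit. The mature miR-16 is thus made from both loci, and its signal cannot be assigned to either. Mir497 (chr11:70234717-70234800, plus strand) and Mir195a (chr11:70235042-70235135, plus strand) lie 241 bases apart, with no other gene of the annotation over them. Mir322 (chrX:53054255-53054349, minus strand) and Mir503 (chrX:53053984-53054054, minus strand) lie 200 bases apart within the noncoding gene C430049B03Rik.

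Between 18.4% and 27.5% of the spots of an array were well above background, 231 to 339 mouse miRNAs were detected, and 0 spots were saturated. The brightness of the arrays before scaling spanned 2.34-fold. The labelled tissue showed its defining markers, since heart muscle miR-1a, miR-133a, miR-208a-3p and miR-499 were detected on all 29 arrays. The markers miR-375, miR-124, miR-9, miR-200a, miR-200b and miR-200c of pancreas, brain and epithelium were detected on 0 arrays, while liver miR-122 was detected on up to 26. P-values set the differences between groups against the spread between mice within groups.

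Each member was measured by 2 probes of 20 spots each. Levels are log2 of the scaled signal, and the level of one member cannot be set against that of another, since probes differ in brightness. For 5 members the probes of a miRNA moved together over the arrays, with Pearson correlations of 0.97 to 0.99 once the group means were removed. The exception was miR-16, at 0.71.

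Every member kept nearly the same level in all 6 groups (the plot of levels by group). The largest gap between the highest and the lowest group mean of a member was 0.37 on the log2 scale, a 1.29-fold difference, for miR-15b, and the other 5 members had gaps from 0.09 (miR-15a) to 0.15 (miR-195). In the order of the 6 group means, all 30 pairs of neighbours had overlapping ranges. In 29 of these 30 pairs the gap was smaller than the larger of the SDs. The exception was miR-15b between vehicle day 1 and vehicle day 28, with a gap of 0.17 and an SD of 0.16. Neighbours in such an order have close means by construction, so their overlap describes the order and does not test for a difference.

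**Figure D1:**
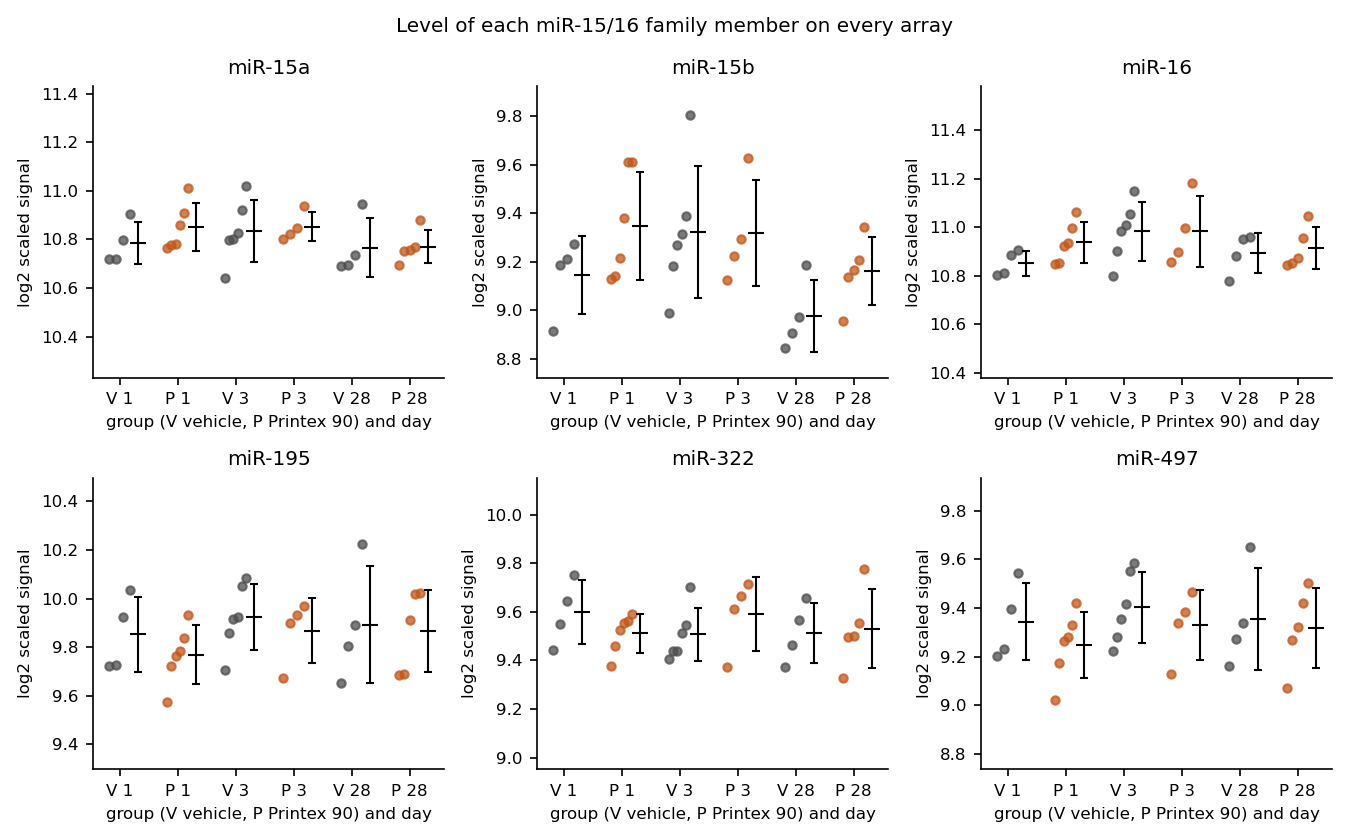
The log2 scaled signal of each member is plotted by group, with vehicle (V, grey) and Printex 90 (P, orange) on days 1, 3 and 28; points are arrays, bars are the mean ± SD, and each panel spans 1.2 log2 units around its own centre. The Printex 90 and vehicle points overlap for every member on every day, and miR-15b has the widest range, from 8.84 to 9.80.

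The spread within groups was small for most members. After removal of the group means the SD was 0.10 for miR-15a and for miR-16, 0.13 for miR-322, 0.16 for miR-195 and miR-497, and 0.21 for miR-15b. The median over the 306 miRNAs tested was 0.27, and miR-15a ranked 17th, miR-16 19th and miR-15b 123rd from the smallest spread.

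The first comparison asks whether Printex 90 changed any member. Differences are log2 values, Printex 90 minus vehicle, given with their standard error from 1 limma fit across all 306 miRNAs and with p-values adjusted by Benjamini-Hochberg over these 306. None of the 6 members passed the threshold of 0.05 on day 1, day 3, day 28 or over the mean of the days (0 of 6 each, also at an unadjusted p under 0.05). The background was the same, with 0% of the 306 miRNAs called in each of these 4 comparisons, and 2, 1, 1 and 0 of the 306 at an unadjusted p under 0.05. The median difference of the members was -0.01 on day 1, 0.00 on day 3 and 0.01 on day 28, beside -0.07, 0.03 and 0.01 over all 306.

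miR-15b, the partner of miR-16 in the Smc4 locus, had the largest difference of the 6 in size on day 1, on day 28 and over the mean of the days, but not on day 3, where miR-322 had it. On day 1 its level was 8.91, 9.19, 9.21 and 9.27 in the vehicle hearts and ran from 9.13 over a median of 9.30 to 9.61 in the 6 Printex 90 hearts. Of these 6 Printex 90 values, 4 lay above the vehicle mean, and the groups overlapped. The difference was 0.20 ± 0.13 (limma adjusted p = 0.742). It moved with the scaling, from 0.01 without scaling to 0.38 with the percentile taken over every probe.

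On day 3 miR-15b ran from 8.99 over a median of 9.29 to 9.80 in the 6 vehicle hearts and was 9.29, 9.63, 9.12 and 9.23 in the Printex 90 hearts. The Printex 90 values lay within the vehicle range, and the difference was -0.01 ± 0.13 (limma adjusted p = 0.999). On day 28 it was 8.84, 8.97, 8.91 and 9.19 in vehicle hearts and 8.95, 9.34, 9.14, 9.21 and 9.17 in Printex 90 hearts. Here 4 of the 5 Printex 90 values lay above the vehicle mean, again with overlap, and the difference was 0.18 ± 0.14 (limma adjusted p = 0.906), with a range over the other settings from 0.01 (percentile over every probe) to 0.25 (without vehicle day 28 replicate 4). Over the mean of the days it was 0.13 ± 0.08 (limma adjusted p = 0.994), the 4th smallest p of the 306 in a comparison that called none. Within single slides the miR-15b difference ran from 0.03 to 0.34 on day 1 (4 slides), from -0.33 to 0.13 on day 3 (3 slides) and from -0.02 to 0.30 on day 28 (3 slides).

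Red cell miRNAs moved with miR-15b. miR-451, which is abundant in red blood cells, differed by 0.47 ± 0.24 on day 1, by -0.18 ± 0.24 on day 3 and by 0.42 ± 0.25 on day 28, and it did not pass the threshold on any day (limma adjusted p = 0.742, 0.999 and 0.906). Of the 4 red cell markers, 3 were measured (miR-451, miR-144 and miR-144*) and all 3 were detected on every array, while miR-486 was not found under that name. Their summed level ran from 13.47 to 14.04 in vehicle and 13.72 to 14.76 in Printex 90 hearts on day 1, from 13.94 to 14.89 and 13.80 to 14.92 on day 3, and from 13.39 to 13.68 and 13.59 to 14.66 on day 28. The summed level of the 4 leukocyte markers had group means from 9.88 (vehicle day 28) to 10.09 (both groups of day 3). The part of either cell type in the miR-15b values was not tested. In whole sections, fewer cells of a type and less of a miRNA per cell cannot be told apart.

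miR-16 showed smaller differences on every day. On day 1 it was 10.81, 10.88, 10.91 and 10.80 in vehicle hearts and ran from 10.85 over a median of 10.93 to 11.06 in Printex 90 hearts. The groups overlapped, and 5 of the 6 Printex 90 values lay above the vehicle mean. The difference was 0.09 ± 0.07 on day 1, 0.00 ± 0.07 on day 3 and 0.02 ± 0.07 on day 28 (limma adjusted p = 0.742, 0.999 and 0.980). miR-15a, the other guide strand of the Dleu2 locus, differed by 0.07 ± 0.07, 0.02 ± 0.07 and 0.00 ± 0.07 (limma adjusted p = 0.821, 0.999 and 0.996).

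The pair from the Mir497 and Mir195a locus had small negative differences. miR-195 was 9.73, 9.72, 9.93 and 10.04 in vehicle hearts on day 1 and ran from 9.57 over a median of 9.77 to 9.93 in Printex 90 hearts. Of these 6 Printex 90 values, 5 lay below the vehicle mean, yet the groups overlapped. The difference was -0.08 ± 0.11 on day 1, -0.06 ± 0.11 on day 3 and -0.03 ± 0.11 on day 28 (limma adjusted p = 0.866, 0.999 and 0.980). miR-497 followed with -0.10 ± 0.10, -0.07 ± 0.10 and -0.04 ± 0.11 (limma adjusted p = 0.821, 0.999 and 0.960). These signs hold relative to the scaling used: when the percentile was taken over every probe, 6 of 6 members were higher on day 1 and 0 of 6 on day 3, and without any scaling these counts were 1 of 6 and 6 of 6.

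miR-322, the guide strand of the X chromosome locus, had differences of unlike sign between days, and these signs too depended on the processing. On day 1 it was 9.55, 9.44, 9.64 and 9.75 in vehicle hearts and ran from 9.37 over a median of 9.54 to 9.59 in Printex 90 hearts. All 6 Printex 90 values lay below the vehicle mean, and 1 of them (9.37) lay below the lowest vehicle value. On day 3, 3 of 4 lay above it. The differences were -0.09 ± 0.09 on day 1, 0.08 ± 0.09 on day 3 and 0.02 ± 0.09 on day 28 (limma adjusted p = 0.798, 0.999 and 0.985). Over the other settings the day 1 value ran from -0.28 (no scaling) to 0.09 (percentile over every probe). The day 3 value ran from -0.08 (deposited series value table) to 0.21 (no scaling).

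The width of the intervals depended on the scaling. With the scaling used here, for all 6 members the 95% interval of the exposure difference lay within 1.5-fold in either direction on each of the 3 days and over their mean (the plot of exposure differences). For miR-15b it ran from -0.07 to 0.48 on the log2 scale on day 1, which corresponds to 0.952-fold to 1.39-fold, and from -0.10 to 0.47 on day 28, the widest of the 18 single-day intervals. For miR-15a on day 1 it ran from -0.08 to 0.21. The bound of 1.5-fold did not hold under 3 of the 44 other settings: 6 of the 24 intervals passed it with the percentile over every probe, 12 of 24 without scaling and 1 of 24 in the deposited series value table. With the percentile over every probe the miR-15b interval on day 1 reached from -0.08 to 0.83.

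**Figure D2:**
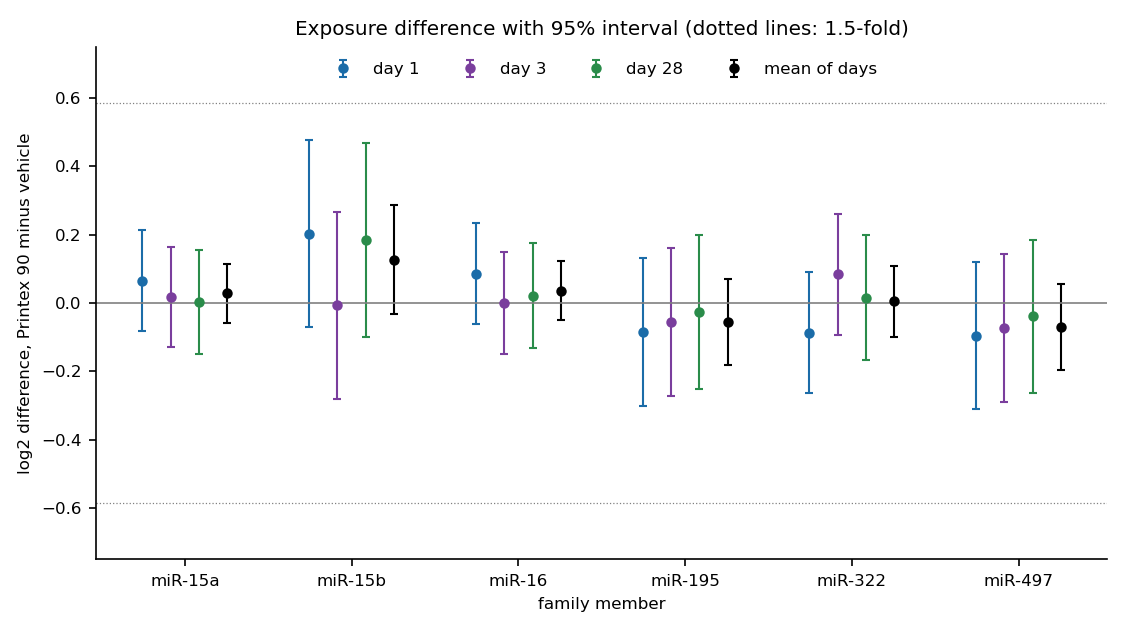
For each member the log2 difference of Printex 90 minus vehicle is plotted with its 95% interval on day 1, day 3, day 28 and over the mean of the days; dotted lines mark 1.5-fold. With the scaling used here every interval covers 0 and stays within the dotted lines, and those of miR-15b reach highest, to 0.48.

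Whether the exposure difference itself changed between days was tested as an interaction. None of the 6 members passed for day 3 against day 1, day 28 against day 1 or day 28 against day 3, and 0% of the 306 miRNAs were called in each (limma), with 2, 3 and 1 of the 306 and 0 of the 6 members at an unadjusted p under 0.05. miR-322 had the smallest p among the members, with a change of 0.17 ± 0.12 from day 1 to day 3 (limma adjusted p = 0.735). miR-15b changed by -0.21 ± 0.19 over the same days (limma adjusted p = 0.735).

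The second comparison asks whether members changed with time. In vehicle hearts none of the 6 passed between day 1 and day 3 (background 0%), between day 1 and day 28 (background 1.96%, 6 of 306) or between day 3 and day 28 (background 0.654%, 2 of 306). In Printex 90 hearts none passed between day 1 and day 3 (background 0%), day 1 and day 28 (background 1.31%, 4 of 306) or day 3 and day 28 (background 0.327%, 1 of 306). The members' counts of 0 of 6 lie near these backgrounds, and comparisons that share a day share its hearts. The miRNAs called between days were others: miR-208b, carried by a myosin gene, and miR-29b in vehicle hearts from day 3 to day 28, miR-208b, miR-29b, miR-29c and miR-301a in Printex 90 hearts from day 1 to day 28, and miR-208b alone from day 3 to day 28.

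The largest time difference of a member was again that of miR-15b in vehicle hearts. It was lower on day 28 than on day 3 by 0.35 on the log2 scale (-0.35 ± 0.13), and the groups overlapped, since the highest day 28 value (9.19) lay above 2 of the 6 day 3 values (8.99 and 9.18). The unadjusted limma p was 0.0152, the one value under 0.05 among the members' differences in the 13 comparisons. Over all 306 miRNAs, 22 had an unadjusted p under 0.05 in this same comparison. The limma adjusted p for miR-15b was 0.332, so the difference did not pass. miR-451 was lower as well between these groups, by -0.70 ± 0.24 (limma adjusted p = 0.271), and the part of red cells in the miR-15b value was not tested. The day 28 vehicle hearts also enter the day 28 exposure difference of miR-15b, so the values are not independent. In Printex 90 hearts the same span gave -0.16 ± 0.14 for miR-15b (limma adjusted p = 0.687).

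The passenger strands and neighbours of the members were mostly dim. Of 7 passenger strands on the array, 2 passed the filter: miR-15a*, detected on up to 24 arrays, and miR-195*, on up to 23. Of the 12 strands of the X chromosome locus that were looked up besides miR-322, only miR-450a passed, on 29 arrays, while miR-503 was detected on up to 2. miR-103 and miR-107, which lie in introns of the Pank genes and share the AGCAGCA run, were detected on all 29. None of these 5 passed the threshold in any of the 13 comparisons (smallest limma adjusted p = 0.439).

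Among these 5, miR-15a* differed by -0.47 ± 0.29 on day 1, 0.09 ± 0.29 on day 3 and 0.25 ± 0.31 on day 28. miR-195* differed by -0.39 ± 0.28, -0.04 ± 0.28 and 0.22 ± 0.29. Both lay near the floor set for low signals (log2 of 4.06), and their group means ran from 4.86 to 5.40 and from 4.70 to 5.10. miR-450a differed by -0.11 ± 0.08, 0.10 ± 0.08 and -0.11 ± 0.09. miR-103 stayed at 0.03 ± 0.08, -0.01 ± 0.08 and 0.01 ± 0.08, and miR-107 at 0.01 ± 0.08, 0.00 ± 0.08 and -0.03 ± 0.08.

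From array to array some members moved together, and the closest pair shared a locus but not the closest sequence. Pearson's r was taken over 29 arrays after removal of the group means and is a description, since arrays share slides and 1 scaling. miR-195 and miR-497, which share a locus and 12 of 21 bases, had r = 0.96 (Spearman's rho = 0.95), the highest of the 15 pairs of members. miR-195 and miR-16, which share 19 of 21 bases but no locus, had r = -0.15 (rho = -0.25).

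The value for miR-195 and miR-497 held in the further checks. Without the 2 arrays farthest from the median of miR-195, r was 0.95 over 27 arrays; with slides removed it was 0.94, and within the 4 slides it ran from 0.73 to 0.99. Over 8 other ways of processing it ran from 0.92 to 0.99 and ranked 1st of 15 in each. miR-195 and miR-16 kept r = -0.07 with slides removed, but ranged from -0.51 with quantile normalization to 0.86 with no scaling, where brightness is shared by all miRNAs.

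A measure that needs no scaling is the spread of the difference between 2 members on the same array. Its SD, with group means removed, was 0.05 for miR-497 minus miR-195, the smallest of the 15 pairs. For miR-16 and miR-195 it was 0.20, the 11th of 15, despite the near-identical sequences. For the Dleu2 pair, miR-16 and miR-15a, it was 0.13, the 7th of 15. For the Smc4 pair, miR-16 and miR-15b, it was 0.15, the 9th of 15. Pairs from different loci ranked 2nd (miR-322 and miR-497, 0.10) and 3rd (miR-195 and miR-322, 0.11). The widest was 0.24 for miR-15b and miR-322. This order depended on the slides. With slides removed the SD was 0.05 for miR-497 minus miR-195 and 0.08 for the Dleu2 pair. It was 0.10 for miR-322 and miR-497, and 0.11 both for miR-195 and miR-322 and for the Smc4 pair. For miR-16 and miR-195 it was 0.17.

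The lowest of the 15 values was r = -0.29 for miR-16 and miR-322, and miR-16 and miR-497 had r = -0.15. The values of miR-16 with the other members differed between its 2 probes, as set out further below. miR-322 went with the chromosome 11 pair, at r = 0.74 with miR-195 and 0.77 with miR-497, and at 0.60 and 0.63 with slides removed. miR-15b and miR-16 had r = 0.70, which was 0.86 with slides removed and between 0.70 and 0.91 within slides. miR-15a and miR-16 had r = 0.19, which fell to -0.01 without the 2 arrays farthest in miR-15a and rose to 0.54 with slides removed. miR-15a went with members of both sets, at r = 0.72 with miR-497, 0.65 with miR-195, 0.52 with miR-322 and 0.70 with miR-15b. With slides removed these values were 0.31, 0.34, 0.12 and 0.62.

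Slides bore on these values. On slide 2 the mean deviation from the group means was 0.12 for miR-15a, 0.16 for miR-15b and miR-497, 0.13 for miR-195 and 0.10 for miR-322, but -0.01 for miR-16. The highest miR-15a value stood on slide 2 in 6 of 6 groups. With slide as a block the SD of miR-15a was 0.05 in place of 0.10, and no exposure difference of a member passed the threshold.

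**Figure D3:**
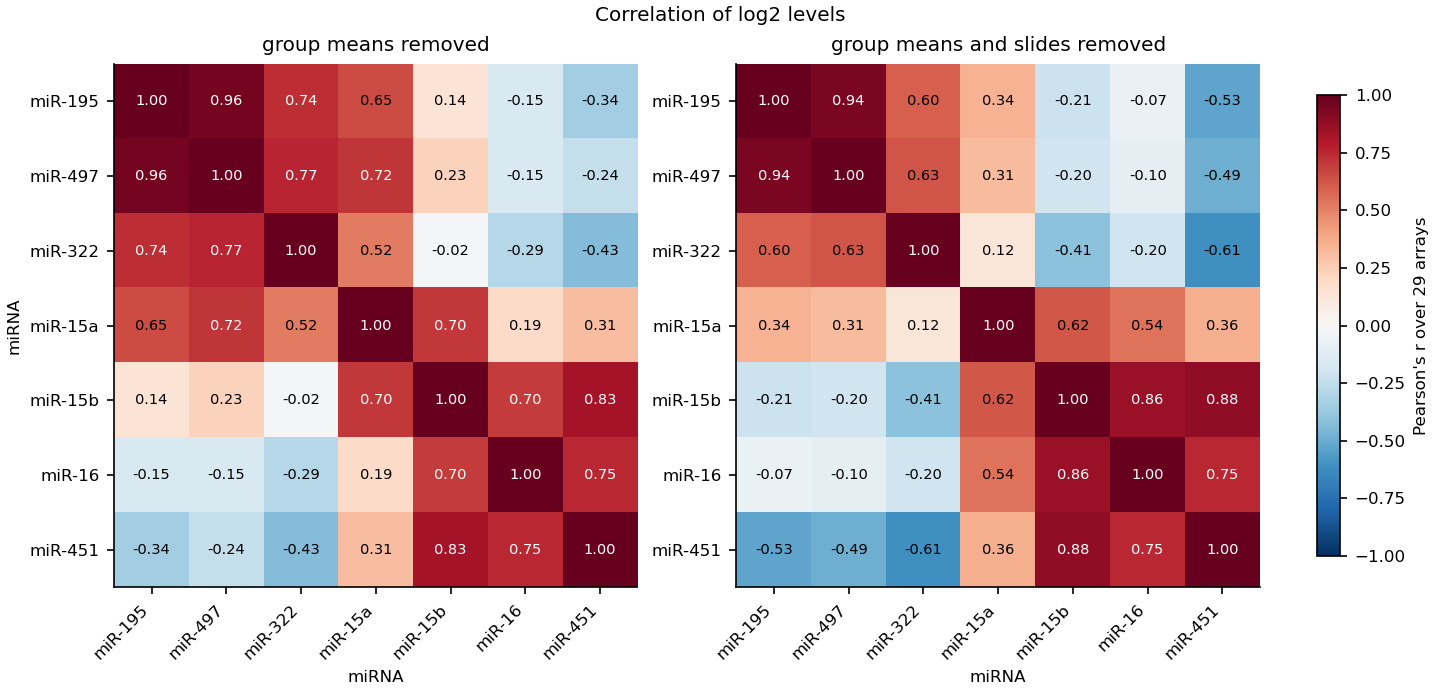
Pearson's r between the log2 levels of the 6 members and of miR-451 over 29 arrays is shown as colours and values, with group means removed (left) and with group means and slides removed (right). miR-195, miR-497 and miR-322 form a block of high values (0.74 to 0.96 on the left). miR-15b and miR-16 stand with miR-451 (0.83 and 0.75) and apart from that block. On the left miR-15a goes with both, at 0.52 to 0.72 with the block and 0.70 with miR-15b. On the right the values of miR-15a with the block are 0.12 to 0.34.

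miR-15b and miR-16 also stood apart from the other members in their relation to blood cell markers. miR-451 had r = 0.83 with miR-15b (rho = 0.78) and r = 0.75 with miR-16 (rho = 0.70), against 0.31 with miR-15a, -0.24 with miR-497, -0.34 with miR-195 and -0.43 with miR-322. Without the 2 arrays farthest in miR-451 the values were 0.82 for miR-15b and 0.65 for miR-16. Within slides, r with miR-451 ran from 0.81 to 0.94 for miR-15b and from 0.73 to 0.93 for miR-16. Over the 8 other ways of processing, it ran from 0.70 to 0.92 for miR-15b and from 0.60 to 0.83 for miR-16. For miR-195 it ran from -0.64 to 0.46, for miR-322 from -0.67 to 0.51 and for miR-497 from -0.64 to 0.51. The values of miR-195, miR-322 and miR-497 with miR-451 thus have no settled sign.

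The other red cell markers gave similar values: miR-144 had r = 0.83 and miR-144* 0.76 with miR-15b, and 0.71 and 0.69 with miR-16. Of the 4 leukocyte markers, miR-142-3p (0.75 and 0.72) and miR-142-5p (0.80 and 0.77) did so as well, while miR-223 had 0.51 with miR-15b and 0.30 with miR-16, and miR-150 had -0.59 and -0.01. The part of blood in these levels was not tested. The 2 probes of miR-16 both showed the relation to miR-451, at 0.69 for the dimmer and 0.70 for the brighter. They differed towards miR-195 (-0.38 and 0.12), miR-497 (-0.41 and 0.15) and miR-322 (-0.50 and -0.01). The same held towards miR-15a (-0.11 and 0.50) and miR-15b (0.49 and 0.81). With slides removed the values were 0.49 and 0.57 for miR-15a and 0.87 and 0.81 for miR-15b. For miR-195 they were then -0.14 and 0.01, for miR-497 -0.17 and -0.02, and for miR-322 -0.28 and -0.11.

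**Figure D4:**
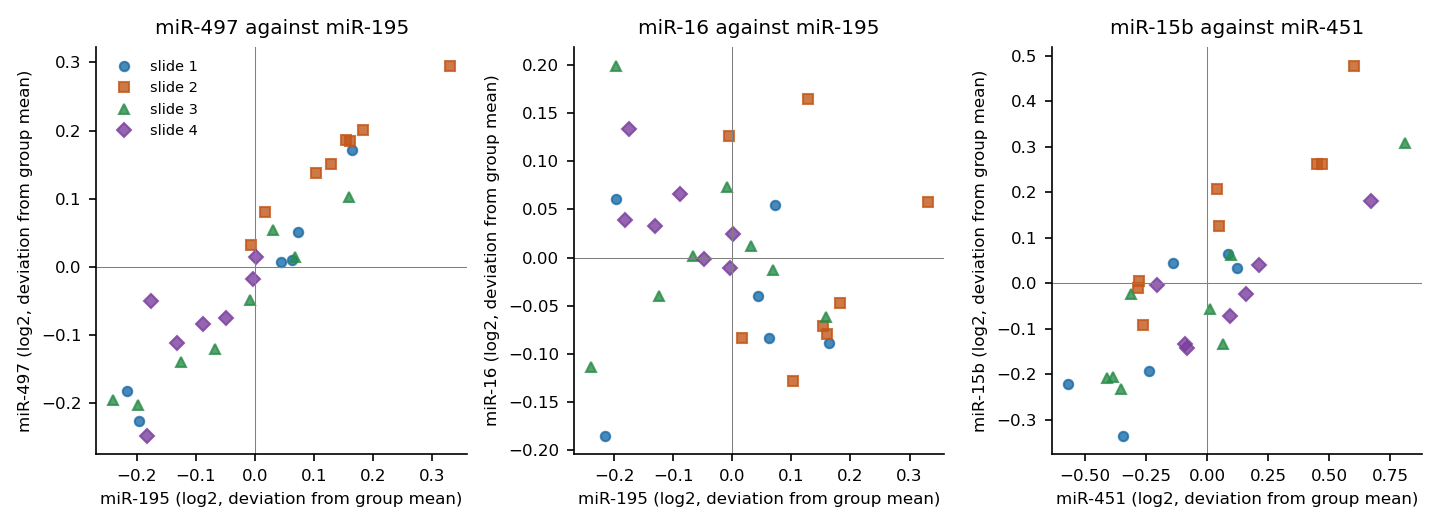
Deviations from the group means (log2) are plotted for 29 arrays, marked by slide, for miR-497 against miR-195, miR-16 against miR-195 and miR-15b against miR-451. The first pair lies along a line (r = 0.96), the second shows no line (r = -0.15), and the third rises with scatter (r = 0.83).

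The 3 miRNAs outside the family most like each member over these 29 arrays were named by the same r. For miR-15b they were miR-106b (0.87), miR-451 (0.83) and miR-144 (0.83), and for miR-16 they were miR-25 (0.90), miR-93 (0.85) and miR-142-5p (0.77). With slides removed the values for miR-25 and miR-93 were 0.94 and 0.91. miR-106b, miR-93 and miR-25 are themselves neighbours in an intron of the Mcm7 gene.

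For the chromosome 11 pair the lists overlapped in 2 names. miR-195 was most like miR-342-3p (0.88), miR-148a (0.86) and miR-151-5p (0.82), and miR-497 was most like miR-511-3p (0.83), miR-151-5p (0.82) and miR-148a (0.79). miR-322 was most like miR-151-5p (0.88), miR-342-3p (0.77) and let-7i (0.76). miR-15a was most like miR-107 (0.84), miR-338-3p (0.84) and the fibroblast miRNA miR-199a-3p (0.84), and with slides removed the value for miR-107 was 0.51.

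Finally, the balance between members of 1 locus was compared between groups as the log2 difference on each array. The exact two-sided permutation test was used for 3 pairs in 6 comparisons, 18 tests in all, adjusted by Benjamini-Hochberg; miR-503 was too dim for its pair with miR-322. None of the 18 passed, and the smallest p that each design allows was between 0.00952 and 0.0286. For miR-497 minus miR-195 the Printex 90 hearts differed from vehicle by -0.01 on day 1, -0.02 on day 3 and -0.01 on day 28 (exact permutation p = 0.648, 0.467 and 0.810, adjusted p = 0.941 for each). The values of this difference on all 29 arrays ran only from -0.61 to -0.42.

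For miR-16 minus miR-15a the exposure changes were 0.02, -0.02 and 0.02 (exact permutation p = 0.819, 0.838 and 0.889, adjusted p = 0.941 for each). For miR-16 minus miR-15b they were -0.12, 0.01 and -0.16 (exact permutation p = 0.390, 0.990 and 0.0794, adjusted p = 0.941, 0.990 and 0.476). In vehicle hearts the same difference was 1.91 ± 0.12 (SD, n = 4) on day 28, 1.66 ± 0.18 (n = 6) on day 3 and 1.70 ± 0.15 (n = 4) on day 1. The change from day 3 to day 28 was 0.26 (exact permutation p = 0.0286, adjusted p = 0.476), and the values overlapped.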

How the data were processed

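Small RNA from 30 hearts was labelled in 1 colour and hybridised to miRNA arrays. The authors read the arrays with Feature Extraction 10.7.3.1 (per the file headers), and their deposited files give a linear background-subtracted intensity for every spot. The deposited series value table holds log2 intensity for all 30 samples; how it was scaled is not stated, and it served only as an alternative.

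Signals were averaged over non-outlying spots per probe. Detection of a probe required a share of 0.5 or more of spots well above background. The 75th percentile over the 418 probes that every array detected served to scale the 29 arrays, after which a floor of 16.7 was set and log2 taken. A miRNA's level is the mean over probes with detection on 4 or more arrays in some group (306 miRNAs, 621 probes). The 6 groups were fitted with 1 mean each in limma 3.58.1 under R 4.3.3, with two-sided moderated tests, and permutations ran in Python 3.11.15. The fits were tested on simulated data. The number of arrays limits the precision.

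The members, lists and tests were chosen with earlier results of these data known. Named are all members, listed relatives that passed detection, the 3 most similar other miRNAs per member, cell type markers, and all miRNAs of comparisons that called 5 or fewer. Sequences and loci were matched by name to RefSeq for all 6 members. Alternatives covered scaling, background, probe choice, filters, slides and left-out arrays.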

Additional observations from a re-analysis of the deposited data

Results flagged for a closer look

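In each group of 4 to 6 arrays, the highest and lowest value of the 6 members and of the 3 within-array differences were compared with the rest of the group by Dixon's test (54 groups). The difference miR-16 minus miR-15a of Printex 90 day 1 replicate 5 stood apart, at -0.16 on the log2 scale, where the other 5 arrays of its group lay between 0.07 and 0.17. By chance about 1 in 20 groups would stand apart. On this array miR-15a was at 11.01, the highest of its group, and miR-16 at 10.85. The array was on slide 2, where the lowest value of this difference lay in every other group too. It was -0.10, -0.02 and 0.01 in vehicle hearts on days 1, 3 and 28. In Printex 90 hearts it was -0.08 on day 3 and -0.04 on day 28. The remaining arrays of slide 2 had 0.15 (Printex 90 day 1 replicate 6) and 0.13 (vehicle day 3 replicate 5). The part of the slide was not tested.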

How the results depend on the processing

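No member passed the threshold in any of the 13 comparisons under any alternative that was run. The limma adjusted p-values were at least 0.0850, for miR-16 in vehicle hearts from day 1 to day 3 with no detection filter. That setting tested all 1079 mouse miRNAs on the array. Of the 1170 differences of members under the other settings, 128 changed sign against the values given, and of the 2262 with 1 array left out, 110 did. The median day 1 exposure difference of all miRNAs was -0.07, but 0.11 with the percentile over every probe and -0.24 without scaling, and the members' signs are relative to it. The miR-15b exposure difference ran from 0.01 to 0.38 on day 1, from -0.11 to 0.12 on day 3, from 0.01 to 0.25 on day 28 and from 0.05 to 0.16 over the mean of the days, and its vehicle difference from day 3 to day 28 from -0.48 to -0.25, the latter without vehicle day 3 replicate 5. The within-array changes had adjusted permutation p-values of at least 0.171 under the alternatives.

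Counts over all miRNAs tested moved by more than 1.5 times in the time comparisons: 0 to 8 for vehicle day 28 against day 1, 0 to 5 for vehicle day 28 against day 3, 0 to 6 for Printex 90 day 28 against day 1, and 0 to 2 for Printex 90 day 28 against day 3. For vehicle day 3 against day 1 the count was 655 in place of 0 with no detection filter. That setting tested all 1079 mouse miRNAs, of which 373 were detected on any array. The causes of these shifts were not tested.

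Within single slides, changes are listed only where they lay the pooled SD of the 2 groups or more from the change over all slides. The values of the other slides lay closer and are left out. For exposure, the change in miR-497 minus miR-195 was -0.0502 and -0.0583 (slides 3 and 4) on day 1. On day 3 it was -0.104 and 0.0375 (slides 1 and 3), and on day 28 it was 0.0560 and -0.112 (slides 2 and 3). In vehicle hearts it was 0.0447 (slide 1) from day 1 to day 3, -0.0805 and 0.0318 (slides 2 and 3) from day 1 to day 28, and -0.0730 and 0.0756 (slides 2 and 3) from day 3 to day 28. The change in miR-16 minus miR-15b was 0.162 (slide 2) for exposure on day 3, -0.0370 (slide 3) on day 28, 0.129 (slide 4) from vehicle day 1 to day 3 and 0.0366 (slide 3) from vehicle day 1 to day 28. The cause was not tested.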

Other observations

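For Printex 90 day 3 replicate 3, which has values only in the deposited series value table, that table gave log2 values of 10.72 for miR-15a, 9.35 for miR-15b, 10.98 for miR-16, 9.66 for miR-195, 9.35 for miR-322 and 9.18 for miR-497. Its miR-15b and miR-16 lay within the range of the other 4 arrays of its group in that table, and the other 4 members lay below it.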
